A study of Mus musculus with 4 samples.

Results

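The interferon-induced genes are 39 mouse genes that cells switch on when interferons reach them, and they were followed here by cell type in AF12198-treated and control pancreatic tumours, ligated pancreas and normal pancreas. They were chosen by symbol, and 38 of the 39 listed symbols were found among the 32285 genes of the count tables. Mx2 was not found under that name and is not analysed here. By role they comprise 4 genes of interferon signalling and transcription (Irf1, Irf7, Irf9, Stat2), the ubiquitin-like Isg15 with its protease Usp18, 13 antiviral effectors (Ifit1, Ifit2, Ifit3, Rsad2, Cmpk2, Ifitm3, Bst2, Xaf1, Rtp4, Parp14, Trim30a, Ifi27l2a, Ifi44), 5 oligoadenylate synthases and relatives (Oas1a, Oas2, Oas3, Oasl1, Oasl2), 6 nucleic acid sensors (Ifih1, Ddx58, Zbp1, Ifi204, Ifi208, Ifi211) and 8 interferon-inducible GTPases (Gbp2, Gbp3, Gbp5, Gbp7, Igtp, Irgm1, Iigp1, Ifi47).

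Interferons are secreted proteins that signal through cell-surface receptors and Janus kinases to STAT transcription factors. Type I interferons activate a complex with STAT2 and IRF9 that binds the interferon-stimulated response element (ISRE), whereas interferon-gamma acts through the gamma-activated site (GAS). Effectors such as the Ifit and Oas genes respond above all to type I interferon, and the GTPases, which attack membrane-enclosed pathogens, respond strongly to interferon-gamma, although most of these genes respond to both. In tumours, interferon-gamma from T and natural killer cells also drives class I antigen presentation and the chemokines that attract T cells.

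The study profiled single cells of 4 mouse tissues at 4 weeks by droplet RNA sequencing, with 1 library per group. The first was a KPC tumour whose host received weekly AF12198, a small peptide that blocks the interleukin-1 receptor IL1R1, by intraperitoneal injection (the treated tumour). The others were a KPC tumour given saline injections (the control tumour), a pancreas in which a suture at the middle blocked the duct to induce pancreatitis (the ligated pancreas) and a normal pancreas. KPC cells are mouse pancreatic cancer cells. They were placed into a ligated pancreas, so that both tumours carry the ligation as well, whereas the normal pancreas carries neither. The labels name no strain, age, sex or number of animals, no KPC clone and no AF12198 dose. Cells of 1 library are not replicates, so no comparison below has a replicate check, and no test could be made between libraries.

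Promoter sequences of members that differed between the libraries show which response elements lie just upstream of each gene. They are the 150 bases before the annotated start, written 5′ to 3′ along the gene, from RefSeq on build GRCm38.p6, and each lies outside the transcribed part of its gene. Capitals mark matches to the ISRE core (GAAANNGAAA on either strand) or to the GAS (TTCNNNGAA, which reads the same on both strands). The windows are chr4:156200819-156200968 on the minus strand for Isg15, chr19:34640739-34640888 on the plus strand for Ifit1, chr12:26456453-26456602 on the minus strand for Rsad2, chr8:71537473-71537622 on the minus strand for Bst2, chr3:142620513-142620662 on the plus strand for Gbp2, chr11:58199406-58199555 on the plus strand for Igtp and chr11:53769864-53770013 on the plus strand for Irf1, whose table lists 2 starts and of which the first is shown.
Isg15: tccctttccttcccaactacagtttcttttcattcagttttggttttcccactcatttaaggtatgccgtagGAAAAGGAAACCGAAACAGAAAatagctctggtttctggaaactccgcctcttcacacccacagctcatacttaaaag
Ifit1: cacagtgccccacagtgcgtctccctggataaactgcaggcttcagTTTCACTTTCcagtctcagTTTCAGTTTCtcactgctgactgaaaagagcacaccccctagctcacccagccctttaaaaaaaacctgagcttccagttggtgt
Rsad2: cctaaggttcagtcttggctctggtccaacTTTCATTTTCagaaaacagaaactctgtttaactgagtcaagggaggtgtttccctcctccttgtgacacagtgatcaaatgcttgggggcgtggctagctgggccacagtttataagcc
Bst2: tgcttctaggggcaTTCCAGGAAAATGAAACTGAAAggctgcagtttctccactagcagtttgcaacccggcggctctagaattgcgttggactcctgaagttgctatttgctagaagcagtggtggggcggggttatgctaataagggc
Gbp2: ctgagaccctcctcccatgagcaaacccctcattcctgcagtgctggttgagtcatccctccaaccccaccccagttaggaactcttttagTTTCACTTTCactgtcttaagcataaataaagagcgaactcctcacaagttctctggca
Igtp: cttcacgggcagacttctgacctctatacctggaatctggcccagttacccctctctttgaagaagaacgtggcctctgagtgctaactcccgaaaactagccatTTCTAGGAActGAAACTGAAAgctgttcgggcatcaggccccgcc
Irf1: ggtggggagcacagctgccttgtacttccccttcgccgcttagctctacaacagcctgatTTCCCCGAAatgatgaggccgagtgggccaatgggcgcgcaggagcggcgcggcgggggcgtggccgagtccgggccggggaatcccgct

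A run of 3 overlapping ISRE cores stood in the Isg15 window, their first bases at 78, 72 and 66 bases before the start. Ifit1, an RNA-binding antiviral protein, had a pair of cores at 104 and 85 bases, and Rsad2, which makes a chain-terminating nucleotide, had 1 core at 120 bases. Gbp2, a guanylate-binding protein, had 1 core at 59 bases. Bst2, the surface protein tetherin, had a GAS at 136 bases that overlaps the first of its 2 ISRE cores at 130 and 124 bases. Igtp, a GTPase that acts on pathogen vacuoles, had a GAS at 45 and an ISRE core at 34 bases, and Irf1, a transcription factor, had a GAS at 90 bases and no ISRE core. A match describes letters in the window and is not evidence that a factor binds there.

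A RefSeq promoter of 300 bases (250 before and 50 after the start) was listed for 30 of the 39 members and for 27025 mouse genes. An ISRE core lay in 20 of the 30 member promoters (66.7%) and in 1079 of all 27025 (3.99%). A GAS lay in 8 of the 30 (26.7%) and in 2582 of all (9.55%). Both motifs were found in 6 members (Ifitm3, Bst2, Oas1a, Gbp5, Gbp7 and Igtp), a GAS alone in Irf1 and Ifit2, and neither in 8 (Irf7, Irf9, Cmpk2, Xaf1, Ifi44, Oasl1, Oasl2 and Ifi47). By role, 6 of 7 GTPases, 4 of 4 sensors, 6 of 10 antiviral effectors and 2 of 4 oligoadenylate synthases with a listed promoter held an ISRE core.

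Counts of unique molecular identifiers (UMIs) were summed over the cells of a class and given as CPM, the UMIs of a gene per 1e6 UMIs of that class and library. A UMI stands for 1 captured 3′ end, so CPM was not divided by gene length. Brackets give exact 95% intervals, which cover counting error only and say nothing of the spread between animals. The tumour libraries held 18875 (treated) and 19235 (control) cells after filtering, and the ligated and normal libraries 1124 and 1771, with median UMIs per cell of 1589 to 2298 in the 4 libraries. Any pair of libraries shared at most 129 barcodes, and at most 1.03% of the smaller library. Cells fell into 35 clusters, of which 31 could be named from marker genes, in 16 classes, and names end in -like because no cell was identified by other means. The 4 unnamed clusters held 0.599% and 0.665% of cells in the treated and control tumours, 2.40% in the ligated pancreas and 31.6% in the normal pancreas, where most belonged to a cluster that raised 9 of 13 acinar and 8 of 12 epithelial markers.

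Members also had UMIs in cells not expected to use them. In the tumours the erythroid-like cells, 73 in the treated and 463 in the control tumour, held all 38 members together at 3123 CPM in the treated tumour and 2863 in the control tumour. Ifitm3 stood there at 583 CPM in the treated tumour and 237 in the control tumour, and Gbp2 at 337 CPM in the treated tumour and 218 in the control tumour. For Rsad2 the level was 181 CPM in the treated tumour and 399.8 in the control tumour, and Isg15 at 271 CPM in the treated tumour and 178 in the control tumour. Those levels are not far below, and for some genes above, those of the classes compared below. Acinar-like cells of the same tumours held less Gbp2 (75.5 CPM in the treated tumour and 86.9 in the control tumour), Rsad2 (10.9 CPM in the treated tumour and 41.7 in the control tumour) and Isg15 (49.1 CPM in the treated tumour and 55.6 in the control tumour). Erythroid-like and acinar-like classes had under 25 cells in the other libraries. Each comparison below was therefore repeated after the pooled profile of the library had been subtracted in proportion to marker genes of other classes, which assigned 7.11% of macrophage/monocyte-like UMIs in the treated tumour and 20.02% in the control tumour to that profile.

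Endothelial-like cells held the members at the highest summed level of the classes present in all 4 libraries. The 38 members together stood at 6379 CPM (interval 6262 to 6497) in the treated tumour, 4823 CPM (interval 4718 to 4929) in the control tumour, 5804 CPM (interval 5465 to 6159) in ligated pancreas and 9742 CPM (interval 9504 to 9985) in normal pancreas. In neutrophil-like cells they summed to 5589 CPM in the treated tumour, 5162 in the control tumour and 4719.9 in ligated pancreas. Macrophage/monocyte-like cells reached 4493 CPM in the treated tumour, 3896 in the control tumour, 2092 in ligated pancreas and 2263 in normal pancreas. The tumours thus lay above both pancreata in macrophage/monocyte-like cells and below the normal pancreas in endothelial-like cells. The fibroblast-like sum was 3612 CPM in the treated tumour, 3199 in the control tumour, 2259.5 in ligated pancreas and 2229.8 in normal pancreas. The epithelial-like sum was 2671 CPM in the treated tumour, 2594 in the control tumour, 1274 in ligated pancreas and 1089 in normal pancreas. In both classes, too, the sum was higher in both tumours than in the pancreata. T-like cells showed little spread, at 1579.8 CPM in the treated tumour, 1601 in the control tumour and 1667 in ligated pancreas.

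The 8 GTPases, taken alone, showed the same pattern. Summed over the 8 genes they stood in epithelial-like cells at 1319.6 CPM in the treated tumour, 1511 in the control tumour, 88.9 in ligated pancreas and 71.1 in normal pancreas. The same sum in macrophage/monocyte-like cells was 936 CPM in the treated tumour, 1015 in the control tumour, 243 in ligated pancreas and 161 in normal pancreas. Neutrophil-like cells gave 2043 CPM in the treated tumour, 1647 in the control tumour and 583 in ligated pancreas. In these 3 classes both tumours stood above each pancreas with enough cells. In endothelial-like cells it was 2171 CPM in the treated tumour, 2057 in the control tumour, 2142 in ligated pancreas and 3806 in normal pancreas. The fibroblast-like sum was 688 CPM in the treated tumour, 966 in the control tumour, 372 in ligated pancreas and 277 in normal pancreas. Fibroblast-like cells followed the first 3 classes, whereas in endothelial-like cells the normal pancreas alone was high.

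**Figure D1:**
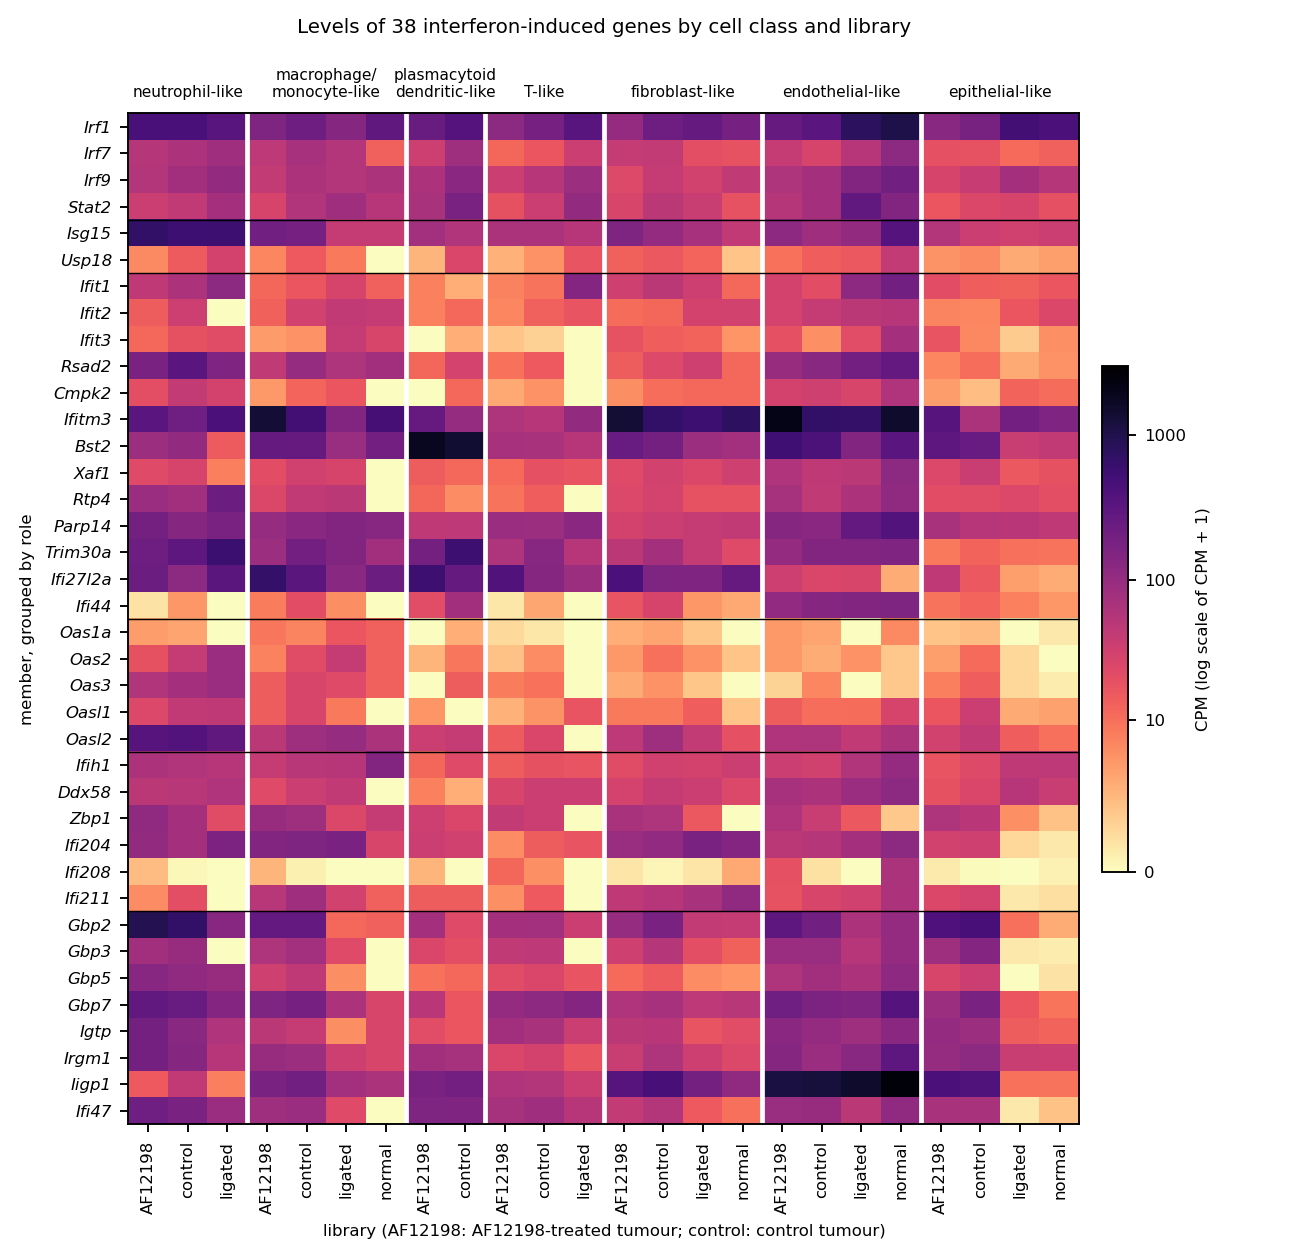
Level of each of the 38 members (rows, grouped by role) in 7 cell classes and up to 4 libraries (columns), coloured on a log scale of CPM + 1 from pale (low) to dark (high); a library with under 25 cells of a class has no column there. Iigp1 and Ifitm3 stand out in the endothelial-like columns, Bst2 in the plasmacytoid dendritic-like ones, and the GTPase rows are dark in the tumour columns of epithelial-like cells and pale in ligated and normal pancreas.

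The signalling genes had their highest levels in endothelial-like cells of the pancreata. Levels are given for 6 main classes: macrophage/monocyte-like, neutrophil-like, T-like, fibroblast-like, endothelial-like and epithelial-like cells. Irf1 stood in endothelial-like cells at 259.6 CPM in the treated tumour, 326 in the control tumour, 787 in ligated pancreas and 1043 in normal pancreas. Its level in epithelial-like cells was 127 CPM in the treated tumour, 184 in the control tumour, 514 in ligated pancreas and 431 in normal pancreas. The 2 tumour libraries were below both other libraries in each of these classes. Irf9, the DNA-binding partner of STAT2, stood in endothelial-like cells at 62.5 CPM in the treated tumour, 75.5 in the control tumour, 144 in ligated pancreas and 208 in normal pancreas. Stat2 itself stood there at 54.7 CPM in the treated tumour, 74.9 in the control tumour, 282 in ligated pancreas and 145 in normal pancreas, so both were again lower in the tumours than in the pancreata. Irf7, which amplifies type I interferon production, peaked in the same class of the normal pancreas at 120.0 CPM and lay between 10.8 and 82.3 CPM in the other 5 main classes.

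Isg15, which is conjugated to other proteins, was highest in neutrophil-like cells, at 707 CPM in the treated tumour, 563 in the control tumour and 583 in ligated pancreas. In macrophage/monocyte-like cells it was high in both tumours and low in both pancreata, at 206 CPM in the treated tumour, 189 in the control tumour, 39.6 in ligated pancreas and 40.2 in normal pancreas. Among endothelial-like cells it was highest in the normal pancreas, at 118 CPM in the treated tumour, 81.5 in the control tumour, 106 in ligated pancreas and 357 in normal pancreas. Usp18, the protease that removes Isg15 and blocks the type I receptor, reached at most 41.5 CPM in these 3 classes, in endothelial-like cells of the normal pancreas.

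Among the antiviral effectors, Ifitm3, which blocks virus entry at membranes, stood in endothelial-like cells at 2062 CPM in the treated tumour, 692 in the control tumour, 680.4 in ligated pancreas and 1531 in normal pancreas. In macrophage/monocyte-like cells it stood at 1351 CPM in the treated tumour, 517 in the control tumour, 153 in ligated pancreas and 495 in normal pancreas. Its level in fibroblast-like cells was 1331 CPM in the treated tumour, 698 in the control tumour, 572 in ligated pancreas and 780.4 in normal pancreas. The treated tumour was the highest of the 4 libraries in these 3 classes. Ifi27l2a, an interferon-induced mitochondrial protein, followed in macrophage/monocyte-like cells, at 676 CPM in the treated tumour, 324 in the control tumour, 130.0 in ligated pancreas and 228 in normal pancreas, and was at most 33.5 CPM in endothelial-like cells of any library. Rsad2 stood in neutrophil-like cells at 170.1 CPM in the treated tumour, 333 in the control tumour and 157 in ligated pancreas. Endothelial-like cells held it at 96.02 CPM in the treated tumour, 130.1 in the control tumour, 197 in ligated pancreas and 269 in normal pancreas.

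Trim30a, a restraint on innate signalling, peaked in neutrophil-like cells of the ligated pancreas at 598 CPM. Parp14, a mono-ADP-ribosyltransferase, peaked in endothelial-like cells of the normal pancreas at 371 CPM. Rtp4, a chaperone that binds RNA, reached 224 CPM in neutrophil-like cells of the ligated pancreas, and Ifi44 reached 159 CPM in endothelial-like cells of the normal pancreas. Ifit1 peaked there too, at 205 CPM, and its neighbours Ifit2 and Ifit3 at 52.3 and 75.4 CPM, as did Cmpk2, the mitochondrial kinase next to Rsad2, at 60.02 CPM and Xaf1 at 120.0 CPM. All 5 were lower in endothelial-like cells of both tumours, where Ifit1 stood at 30.1 CPM in the treated tumour and 20.98 in the control tumour and Xaf1 at 60.9 CPM in the treated tumour and 45.6 in the control tumour.

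Of the oligoadenylate synthases, which make a messenger that turns on RNase L, and their Oasl relatives, Oasl2 was the most counted, and neutrophil-like cells held it at 349 CPM in the treated tumour, 376 in the control tumour and 292 in ligated pancreas. Oas2 and Oas3 peaked in neutrophil-like cells of the ligated pancreas, each with 12 UMIs (89.8 CPM), and Oasl1 there stood at 44.9 CPM. Oas1a stayed at or below 16.96 CPM in the 6 main classes and rested on few UMIs outside macrophage/monocyte-like cells.

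Of the sensors, Ifih1 and Ddx58, which detect viral RNA, stood in endothelial-like cells at 102 and 120.0 CPM in the normal pancreas, against 31.8 and 64.2 CPM in the control tumour. Zbp1, a sensor of Z-form nucleic acid that triggers cell death, was higher in both tumours than in the pancreata in endothelial-like and fibroblast-like cells. Endothelial-like cells held it at 60.9 CPM in the treated tumour, 37.8 in the control tumour, 15.9 in ligated pancreas and 1.54 in normal pancreas. Fibroblast-like cells held it at 68.2 CPM in the treated tumour, 61.4 in the control tumour, 16.2 in ligated pancreas and 0 in normal pancreas. Ifi204, a DNA sensor, stood in macrophage/monocyte-like cells at 152 CPM in the treated tumour, 162 in the control tumour, 178 in ligated pancreas and 26.8 in normal pancreas. Ifi211 of the same family stood there at 50.7 CPM in the treated tumour, 81.7 in the control tumour, 31.1 in ligated pancreas and 13.4 in normal pancreas. Ifi208 had over 5 CPM in T-like cells of both tumours, at 11.8 CPM in the treated tumour and 5.49 in the control tumour. Its endothelial-like level was 19.5 CPM in the treated tumour, 0.5995 in the control tumour, 0 in ligated pancreas and 66.2 in normal pancreas. Ifi204, Ifi208 and Ifi211 belong to 1 gene family of near copies, as do the Gbp, the Ifit, the Oas and the Trim30 genes, and reads from near copies may be assigned to the wrong member or dropped.

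Among the GTPases, Iigp1, which disrupts pathogen vacuoles, was highest in endothelial-like cells in every library, at 1147 CPM in the treated tumour, 1220.1 in the control tumour, 1547 in ligated pancreas and 2579 in normal pancreas. In epithelial-like cells it was high in the tumours alone, at 437 CPM in the treated tumour, 403 in the control tumour, 9.48 in ligated pancreas and 9.19 in normal pancreas. Gbp2 was highest in tumour neutrophil-like cells, at 934 CPM in the treated tumour, 699 in the control tumour and 135 in ligated pancreas. Epithelial-like cells held it at 409.7 CPM in the treated tumour, 484 in the control tumour, 9.93 in ligated pancreas and 2.99 in normal pancreas. Gbp7 and Irgm1 peaked in endothelial-like cells of the normal pancreas, at 357 and 306 CPM. In neutrophil-like cells Ifi47 and Igtp had their highest levels among these classes in the treated tumour, at 212 and 194 CPM, against 177 and 130.0 CPM in the control tumour and 89.8 and 59.8 CPM in the ligated pancreas. Gbp3 reached at most 142 CPM, in epithelial-like cells of the control tumour, and Gbp5 at most 131 CPM, in neutrophil-like cells of the treated tumour.

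The first comparison set the AF12198-treated tumour against the control tumour, and blockade of IL1R1 itself was not measured here. Ifitm3 and Ifi27l2a were higher in the treated than in the control tumour in all 15 classes with at least 25 cells in both, and past 2-fold in 9 and 11 of them. Oas2 was lower past 2-fold in all 8 classes with at least 20 UMIs of it over both libraries, and Irf9 lower in 14 of 14 and Ifi44 in 9 of 9. The GTPases mostly differed by less than 2-fold: none of the 8 passed it in macrophage/monocyte-like, fibroblast-like, endothelial-like, epithelial-like or T-like cells. A value of 1 library per group cannot tell treatment from mouse, tumour or library.

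Counts take genes with 20 or more UMIs over both libraries, and the background is the share of all such genes that differed as much in the same direction. Macrophage/monocyte-like cells had 3 of 38 members higher by 2-fold or more and 8 lower by as much, against 3.56% and 11.7% of 13555 genes. Neutrophil-like cells had 1 of 38 members higher by 2-fold or more and 7 lower by as much, against 3.21% and 19.1% of 12024 genes. T-like cells had 2 of 37 members higher by 2-fold or more and 6 lower by as much, against 3.17% and 16.2% of 11798 genes. Fibroblast-like cells had 1 of 37 members higher by 2-fold or more and 2 lower by as much, against 3.20% and 9.02% of 13551 genes. Endothelial-like cells had 3 of 35 members higher by 2-fold or more and 0 lower by as much, against 4.46% and 9.52% of 9942 genes. Epithelial-like cells had 4 of 37 members higher by 2-fold or more and 2 lower by as much, against 4.90% and 7.75% of 13909 genes. These counts exceed the background by a few genes at most, or fall short of it. The median gene was itself lower in the treated tumour, with a log2 ratio of −0.44 over all genes in T-like and −0.23 in endothelial-like cells. Median log2 ratios of all genes were −0.40 (neutrophil-like), −0.34 (macrophage/monocyte-like), −0.29 (fibroblast-like) and −0.28 (epithelial-like). The member median was 0.12 in endothelial-like cells and −0.17 in neutrophil-like cells, above the median gene in both. It was −0.28 in epithelial-like, −0.39 in T-like, −0.45 in macrophage/monocyte-like and −0.44 in fibroblast-like cells, close to the median gene or slightly below it. Counted relative to the median gene, 3 members instead of 8 were past 2-fold lower in macrophage/monocyte-like cells, 3 instead of 7 in neutrophil-like cells and 3 instead of 6 in T-like cells.

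Of the signalling genes, Stat2 in macrophage/monocyte-like cells stood at 27.8 CPM in the treated tumour against 58.7 CPM in the control tumour, 2.11-fold lower (interval 1.94 to 2.31). Stat2 was lower in 13 of 13 classes, of which 10 remained lower relative to the median gene and 11 after subtraction of the pooled profile. Irf9 was lower in 14 of 14 classes under all 3 readings. Irf1 in fibroblast-like cells stood at 104 CPM in the treated tumour against 218 CPM in the control tumour, 2.10-fold lower (interval 1.92 to 2.29), and it was lower in 14 of 15 classes, 11 relative to the median gene. In neutrophil-like cells Irf1 was close to equal, at 462 CPM in the treated tumour against 445 CPM in the control tumour.

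Isg15 and its protease lay on opposite sides. Isg15 was higher in 12 of 15 classes, though past 2-fold in 1. Neutrophil-like cells held 707 CPM in the treated tumour against 563 CPM in the control tumour. Usp18 was lower in 8 of 8 classes, and macrophage/monocyte-like cells held 6.49 CPM in the treated tumour against 15.6 CPM in the control tumour, 2.40-fold lower (interval 2.01 to 2.87). Relative to the median gene Isg15 was higher in 14 of 15 classes and Usp18 lower in 6 of 8. After subtraction of the pooled profile Isg15 was higher in 13 of 15 classes and lower in 2, and Usp18 was lower in 7 of 8. The erythroid-like cells also held more Isg15 in the treated tumour, by the values given above. The part of free RNA in the Isg15 difference was itself not tested.

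Among the antiviral effectors, Ifitm3 and Ifi27l2a were higher in the treated tumour. In endothelial-like cells Ifitm3 stood at 2062 CPM in the treated tumour against 692 CPM in the control tumour, 2.98-fold higher (interval 2.79 to 3.19). Macrophage/monocyte-like cells held it at 1351 CPM in the treated tumour against 517 CPM in the control tumour, 2.61-fold higher (interval 2.56 to 2.67). Its level in epithelial-like cells was 348 CPM in the treated tumour against 66.5 CPM in the control tumour, 5.23-fold higher (interval 4.90 to 5.59). Erythroid-like cells differed in the same direction, 583 CPM in the treated tumour against 237 CPM in the control tumour. After the pooled profile was subtracted, Ifitm3 remained higher in 12 of 15 classes and was lower in 1, and the ratio in endothelial-like, macrophage/monocyte-like and epithelial-like cells was no smaller than before.

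Ifi27l2a in T-like cells stood at 381 CPM in the treated tumour against 137 CPM in the control tumour, 2.78-fold higher (interval 2.58 to 3.004). Its level in fibroblast-like cells was 435 CPM in the treated tumour against 162 CPM in the control tumour, 2.69-fold higher (interval 2.54 to 2.85). Macrophage/monocyte-like cells held 676 CPM in the treated tumour against 324 CPM in the control tumour, 2.09-fold higher (interval 2.03 to 2.14). The epithelial-like value was 44.4 CPM in the treated tumour against 15.9 CPM in the control tumour, and subtraction of the pooled profile took both to 0. The direction was thus the same in these 4 classes. Erythroid-like cells differed alike, at 356 CPM in the treated tumour and 139 in the control tumour. After the pooled profile was subtracted, Ifi27l2a was higher in 11 of 15 classes and lower in 2. Ifit3, which binds viral RNA with Ifit1, stood in endothelial-like cells at 19.5 CPM in the treated tumour against 5.40 CPM in the control tumour, 3.62-fold higher (interval 1.71 to 8.57). Its epithelial-like level was 17.5 CPM in the treated tumour against 6.33 CPM in the control tumour, 2.76-fold higher (interval 2.18 to 3.51).

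Other effectors were lower in the treated tumour. In macrophage/monocyte-like cells Cmpk2 stood at 4.57 CPM in the treated tumour against 12.2 CPM in the control tumour, 2.67-fold lower (interval 2.17 to 3.30). Ifi44 stood at 7.80 CPM in the treated tumour against 20.7 CPM in the control tumour, 2.65-fold lower (interval 2.26 to 3.11). Ifit2 stood at 12.9 CPM in the treated tumour against 30.3 CPM in the control tumour, 2.35-fold lower (interval 2.07 to 2.66). Cmpk2, Ifi44 and Ifit2 were thus lower by more than 2-fold on small levels. Rsad2 in the same cells stood at 43.9 CPM in the treated tumour against 99.5 CPM in the control tumour, 2.27-fold lower (interval 2.12 to 2.43). Trim30a stood at 88.1 CPM in the treated tumour against 197 CPM in the control tumour, 2.23-fold lower (interval 2.13 to 2.34). All 5 differences were past 2-fold and outside counting error. Erythroid-like cells differed the same way in Rsad2, by the values given above, and in Trim30a, at 74.9 CPM in the treated tumour and 149.5 in the control tumour, and the part of free RNA was not tested. Subtracting the pooled profile left Rsad2 at −1.03 and Trim30a at −1.04 on the log2 scale in macrophage/monocyte-like cells, against −1.18 and −1.16 without it. Trim30a was lower in 14 of 15 classes and past 2-fold in 8, among them T-like cells, at 62.97 CPM in the treated tumour against 133 CPM in the control tumour.

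Neutrophil-like cells had 7 members past 2-fold lower, of several roles. Ifi44 stood at 0.591 CPM in the treated tumour against 4.66 CPM in the control tumour, 7.89-fold lower (interval 3.53 to 20.7). Ifi211 stood at 5.74 CPM in the treated tumour against 20.1 CPM in the control tumour, 3.50-fold lower (interval 2.64 to 4.69). Iigp1 stood at 15.2 CPM in the treated tumour against 41.9 CPM in the control tumour, 2.76-fold lower (interval 2.31 to 3.30). These were the widest of the 7. Ifit2 stood at 14.3 CPM in the treated tumour against 33.8 CPM in the control tumour, 2.37-fold lower (interval 1.96 to 2.87). Usp18 stood at 6.16 CPM in the treated tumour against 14.7 CPM in the control tumour, 2.39-fold lower (interval 1.79 to 3.21). Oas2 and Cmpk2 were the nearest to the threshold, at 2.07-fold and 2.03-fold lower. Ifi44 and Iigp1 were at or near 0 in both libraries once the pooled profile was subtracted. Neutrophil-like cells lay in different clusters in the 2 tumours: cluster 0 held 119 cells in the treated and 5120 in the control tumour, and cluster 1 held 3817 and 182. Those clusters were built from variable genes that include some members, and the split by cluster was not used further. With the members left out the split remained, with 178 treated and 5353 control cells in 1 cluster and 4570 and 193 in another. The ratios of neutrophil-like cells thus set largely different clusters side by side.

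Oas2 gave the most uniform difference of the oligoadenylate synthases. In macrophage/monocyte-like cells it stood at 7.002 CPM in the treated tumour against 22.03 CPM in the control tumour, 3.15-fold lower (interval 2.67 to 3.71). Its level in epithelial-like cells was 4.05 CPM in the treated tumour against 10.98 CPM in the control tumour, 2.71-fold lower (interval 1.99 to 3.76). Its level in T-like cells was 1.77 CPM in the treated tumour against 5.81 CPM in the control tumour, 3.29-fold lower (interval 1.76 to 6.48). It was lower in 8 of 8 classes also relative to the median gene and after subtraction. Oasl1 in epithelial-like cells stood at 16.9 CPM in the treated tumour against 35.9 CPM in the control tumour, 2.13-fold lower (interval 1.82 to 2.49). Oasl2 was lower in 14 of 14 classes, never past 2-fold, and relative to the median gene it was lower in 6 and higher in 8. Oas3 was lower in 8 of 8 classes, 5 relative to the median gene.

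Of the sensors, Zbp1 was higher in 14 of 14 classes, past 2-fold in 2, and stood in endothelial-like cells at 60.9 CPM in the treated tumour against 37.8 CPM in the control tumour. Ifi208 was past 2-fold higher in all 4 classes that met the minimum, on small counts. Macrophage/monocyte-like cells held 76 UMIs in the treated and 6 in the control tumour, T-like cells 100 in the treated and 34 in the control tumour. Endothelial-like cells held 35 UMIs in the treated and 1 in the control tumour, and neutrophil-like cells 24 in the treated and 1 in the control tumour. The ratio was 32.6 in endothelial-like cells (interval 5.48 to 1324) and 8.57 in macrophage/monocyte-like cells (interval 3.76 to 24.1). Ifi211 went the other way and was lower in 11 of 11 classes, 8 relative to the median gene, and T-like cells held 5.41 CPM in the treated tumour against 15.2 CPM in the control tumour. Ifi204 was past 2-fold lower in T-like cells, at 5.88 CPM in the treated tumour against 14.5 CPM in the control tumour, and both values were 0 after subtraction.

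In the classes named above the GTPases mostly stayed within 2-fold. Their median log2 ratio was −0.17 in macrophage/monocyte-like, 0.23 in neutrophil-like and 0.13 in endothelial-like cells. Gbp2 stood in macrophage/monocyte-like cells at 276 CPM in the treated tumour against 277 CPM in the control tumour. Its level in neutrophil-like cells was 934 CPM in the treated tumour against 699 CPM in the control tumour. Its level in epithelial-like cells was 409.7 CPM in the treated tumour against 484 CPM in the control tumour. The treated tumour was thus slightly above, close to or below the control tumour by class. Iigp1 stood in endothelial-like cells at 1147 CPM in the treated tumour against 1220.1 CPM in the control tumour. Its level in epithelial-like cells was 437 CPM in the treated tumour against 403 CPM in the control tumour. Gbp2 and Iigp1 were close in the 2 libraries in these classes. Over all 15 classes Iigp1 was lower in 12, past 2-fold in 6, with a median log2 ratio of −0.76 and a lowest of −2.92 in NK or innate lymphoid-like cells, where the treated tumour held 6 UMIs. Relative to the median gene it was lower in 9 and higher in 6 classes. The difference between these GTPases and genes such as Oas2 was not tested.

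Some cells held more of many members in the treated tumour. Lymphatic endothelial-like cells, 34 in the treated and 101 in the control tumour, had 10 of 26 members higher by 2-fold or more and 0 lower by as much, against 11.6% and 13.8% of 5657 genes. Cluster 5, of macrophage/monocyte-like cells, had 29 of 37 members higher by 2-fold or more and 0 lower by as much, against 5.62% and 19.4% of 9994 genes, but it held 98 cells of the treated and 2303 of the control tumour. Clusters were built from variable genes that include members. With the members left out, the 4 clusters of macrophage/monocyte-like cells held 1151, 2194, 696 and 213 cells of the treated tumour. They held 1975, 878, 1877 and 214 cells of the control tumour, in the same order. None of the 4 was split as far as cluster 5, so the counts of cluster 5 are only a description. An unnamed cluster that raised 9 of 14 macrophage/monocyte markers held 261 treated and 28 control cells. Ratios over the whole macrophage/monocyte-like class thus also compare different mixes of clusters.

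Cluster 11, which raised 10 of 12 epithelial markers and makes up most of the epithelial-like cells in ligated and normal pancreas, held 81 cells in the treated and 86 in the control tumour, and a cluster of 80 treated and 83 control cells was found with the members left out too. Cluster 11 had 13 of 28 members higher by 2-fold or more and 0 lower by as much, against 4.40% and 9.69% of 8805 genes. The GTPases gave 6 of the 13, with a median log2 ratio of 1.74 over 8. Gbp2 stood at 227 CPM in the treated tumour against 11.02 CPM in the control tumour, 20.7-fold higher (interval 10.3 to 48.4). Iigp1 stood at 357 CPM in the treated tumour against 60.6 CPM in the control tumour, 5.90-fold higher (interval 4.30 to 8.27). Igtp stood at 88.3 CPM in the treated tumour against 23.4 CPM in the control tumour, 3.77-fold higher (interval 2.22 to 6.77). These 3 GTPases were higher in the treated tumour outside counting error. Isg15 stood at 122 CPM in the treated tumour against 44.1 CPM in the control tumour, 2.76-fold higher (interval 1.85 to 4.22). Ifit1 stood at 37.4 CPM in the treated tumour against 9.64 CPM in the control tumour, 3.88-fold higher (interval 1.70 to 10.3). Gbp5 rested on 21 UMIs in the treated and 1 in the control tumour, a ratio of 15.8 (interval 2.55 to 655). The remaining 7 were Ifi27l2a, Irf7, Gbp7, Gbp3, Parp14, Bst2 and Oasl2, at ratios of 2.02 to 3.57. The other epithelial-like cells of the tumours, mostly in clusters 10 and 15, are most of the class, and over the whole epithelial-like class no GTPase was past 2-fold. In that class Gbp2 and Iigp1 were high in both tumours, by the values given above.

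**Figure D2:**
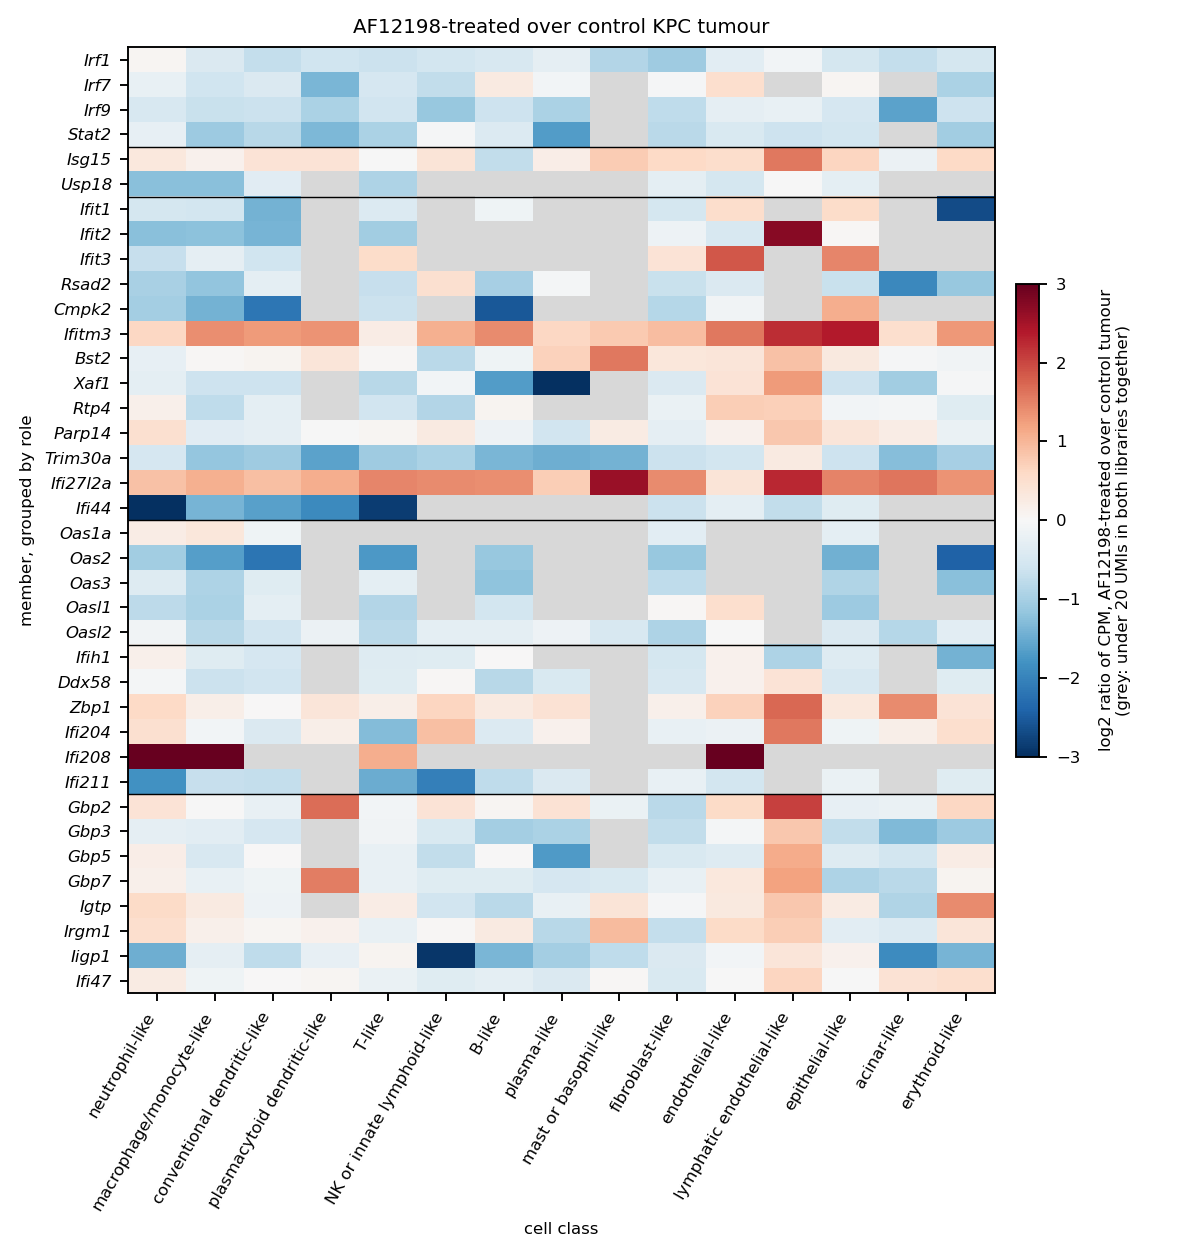
Log2 ratio of CPM, AF12198-treated over control tumour, for each member (rows, by role) and cell class (columns); the colour scale stops at 3 either way and grey marks a member with under 20 UMIs in the libraries together. The Ifitm3 and Ifi27l2a rows are red throughout, and the Oas2 row is blue wherever it passed the minimum.

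Genes of the wider pathway were described by lists. None of the 9 class I presentation genes was past 2-fold higher in any of the 6 main classes, and 1 was lower, in epithelial-like cells. Of 7 feedback inhibitors, 3 were past 2-fold lower in endothelial-like cells, 2 each in T-like, macrophage/monocyte-like and epithelial-like cells and 1 each in fibroblast-like and neutrophil-like cells, and none was higher. Of all genes, 7.75% to 19.1% were past 2-fold lower in these classes. A count of 1 of 7 lies near that share, and counts of 2 or 3 of 7 lie above it, on few genes. The list includes Usp18, itself a member and past 2-fold lower in macrophage/monocyte-like and neutrophil-like cells. Cxcl9, a T-cell attractant induced by interferon-gamma, stood in endothelial-like cells at 1104 CPM in the treated tumour against 440.1 CPM in the control tumour, 2.51-fold higher (interval 2.30 to 2.73). Its level in macrophage/monocyte-like cells was 772 CPM in the treated tumour against 739.9 CPM in the control tumour. Ifng, which encodes interferon-gamma, in T-like cells stood at 218 CPM in the treated tumour against 129 CPM in the control tumour.

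The second comparison set the control tumour against the ligated pancreas into which such tumours are placed. The GTPases were higher in the tumour in several classes: all 8 lay past 2-fold in macrophage/monocyte-like and in epithelial-like cells, 6 of 8 in fibroblast-like, 5 of 8 in neutrophil-like and 5 of 7 in lymphatic endothelial-like cells. In endothelial-like and T-like cells 1 of 8 did, with median log2 ratios of 0.31 in endothelial-like and 0.64 in T-like cells. None was past 2-fold lower in these 7 classes. Gbp2 was past 2-fold higher in 7 of 7 classes, in T-like cells on 2 UMIs in the ligated library, where it turned lower after subtraction of the pooled profile. Effectors, synthases and sensors were mixed, with Ifit3 and Oas1a lower in macrophage/monocyte-like cells and Oas2, Rtp4 and Ifi204 lower in neutrophil-like cells. The ligated library is small, and many of its values rest on under 10 UMIs.

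Macrophage/monocyte-like cells had 16 of 37 members higher by 2-fold or more and 2 lower by as much, against 8.94% and 16.1% of 12367 genes. Fibroblast-like cells had 12 of 37 members higher by 2-fold or more and 1 lower by as much, against 11.4% and 7.70% of 13284 genes. Neutrophil-like cells had 9 of 37 members higher by 2-fold or more and 6 lower by as much, against 15.0% and 11.0% of 10816 genes. Epithelial-like cells had 20 of 37 members higher by 2-fold or more and 5 lower by as much, against 19.2% and 28.0% of 13535 genes. Lymphatic endothelial-like cells had 10 of 19 members higher by 2-fold or more and 0 lower by as much, against 15.8% and 11.7% of 4683 genes. The share of members above 2-fold was well over the background in macrophage/monocyte-like, epithelial-like, fibroblast-like and lymphatic endothelial-like cells. Endothelial-like cells had 3 of 32 members higher by 2-fold or more and 4 lower by as much, against 20.5% and 14.4% of 8589 genes. T-like cells, of which the ligated library held 59, had 2 of 36 members higher by 2-fold or more and 6 lower by as much, against 10.6% and 18.8% of 10659 genes. In endothelial-like and T-like cells the shares past 2-fold were thus below the background.

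Different clusters hold these classes in the 2 libraries. Epithelial-like cells were mostly in clusters 10 and 15 in the control tumour and in cluster 11 in the ligated pancreas, so that comparison sets different epithelial-like cells side by side. Neutrophil-like cells lay mostly in cluster 0 in the control tumour (5120 of 5990) and in cluster 2 in the ligated pancreas (62 of 82). Cluster 2 held 249 cells of the control tumour. With the members left out, 1 cluster held 5353 control and 18 ligated cells and another 184 and 41. Within cluster 2, 6 of 28 members were higher by 2-fold or more and 3 lower, against 18.9% and 7.42% of 2815 genes. Of 6 GTPases with enough UMIs there, 3 were past 2-fold higher. Cluster 9 held 129 of the 180 macrophage/monocyte-like cells after ligation, and 70 of the 4941 in the control tumour. With the members left out of the clustering, the named macrophage/monocyte-like clusters held 25, 9, 22 and 6 ligated cells. A cluster with 153 ligated cells went unnamed, since it raised 9 of 14 macrophage/monocyte and 7 of 13 acinar markers. Its cells had a median of 0.385 times the median UMIs of their library. The ligated macrophage/monocyte-like class in the ratios below thus depends on the clustering.

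In macrophage/monocyte-like cells Gbp2 stood at 277 CPM in the control tumour against 11.3 CPM in ligated pancreas, 24.5-fold higher (interval 9.56 to 89.9), with 4 UMIs in the ligated library. Gbp7 stood at 189 CPM in the control tumour against 65.02 CPM in ligated pancreas, 2.90-fold higher (interval 1.93 to 4.58). Iigp1 stood at 206 CPM in the control tumour against 76.3 CPM in ligated pancreas, 2.70-fold higher (interval 1.85 to 4.10). The ligated pancreas was the lower library for these 3 genes. Ifi47 stood at 91.9 CPM in the control tumour against 22.6 CPM in ligated pancreas, 4.06-fold higher (interval 2.06 to 9.42). Gbp3 stood at 78.4 CPM in the control tumour against 22.6 CPM in ligated pancreas, and Irgm1, a regulator of these GTPases, at 87.9 CPM in the control tumour against 33.9 CPM in ligated pancreas. Igtp and Gbp5 had 2 UMIs each in the ligated library, and their ratios were 7.08 (interval 1.95 to 58.6) and 7.98 (interval 2.20 to 65.97). All 8 were higher in the control tumour, with counting intervals above equality. Erythroid-like cells of the control tumour held Gbp2 at 218 CPM. After subtraction of the pooled profile Gbp2 in macrophage/monocyte-like cells stood at 213 CPM in the control tumour, against 5.95 CPM in the ligated pancreas.

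Other members of the same cells went both ways. Isg15 stood at 189 CPM in the control tumour against 39.6 CPM in ligated pancreas, 4.77-fold higher (interval 2.84 to 8.73). Ifitm3 stood at 517 CPM in the control tumour against 153 CPM in ligated pancreas, 3.38-fold higher (interval 2.59 to 4.51). Bst2 stood at 261 CPM in the control tumour against 93.3 CPM in ligated pancreas, 2.79-fold higher (interval 1.99 to 4.06). Zbp1, Ifi27l2a, Ifi211, Oasl1 and Ifi44 were past 2-fold higher too, the last 2 on 3 and 2 UMIs in the ligated library. Lower past 2-fold was Ifit3, at 5.15 CPM in the control tumour against 39.6 CPM in ligated pancreas, 7.68-fold lower (interval 4.06 to 13.4), and Oas1a stood at 6.81 CPM in the control tumour against 16.96 CPM in ligated pancreas, on 6 UMIs in the ligated library and with an interval that includes equality. The 18 members past 2-fold in this class were thus 8 GTPases, 8 other members higher and 2 lower.

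In neutrophil-like cells, of which the ligated library held 82, Gbp2 stood at 699 CPM in the control tumour against 135 CPM in ligated pancreas, 5.19-fold higher (interval 3.28 to 8.77). Gbp3 stood at 96.4 CPM in the control tumour against 0 CPM in ligated pancreas, at least 4.29-fold higher with the ligated library set at a floor of 3 counts. Irgm1 stood at 138 CPM in the control tumour against 52.4 CPM in ligated pancreas, 2.64-fold higher (interval 1.28 to 6.58). These 3 GTPases were higher in the control tumour. Rsad2 stood at 333 CPM in the control tumour against 157 CPM in ligated pancreas, 2.12-fold higher (interval 1.39 to 3.43). Igtp was higher on 8 UMIs in the ligated library, Zbp1 on 3, Bst2 on 2 and Xaf1 and Iigp1 on 1 UMI each, of which Iigp1 turned lower under a finer clustering. Members of other roles were lower. Rtp4 stood at 81.02 CPM in the control tumour against 224 CPM in ligated pancreas, 2.77-fold lower (interval 1.86 to 3.99). Ifi27l2a stood at 121 CPM in the control tumour against 322 CPM in ligated pancreas, 2.65-fold lower (interval 1.91 to 3.59). Oas2 stood at 39.2 CPM in the control tumour against 89.8 CPM in ligated pancreas, 2.29-fold lower (interval 1.17 to 4.05). With them Ifi204 and Ifitm3 were 2-fold or more lower, by 2.19-fold and 2.02-fold, and Usp18 on 4 UMIs in the ligated library. Of the 9 higher members 5 were GTPases, and of the 6 lower ones none was. After subtraction of the pooled profile 10 members were lower.

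In fibroblast-like cells Gbp2 stood at 176 CPM in the control tumour against 40.7 CPM in ligated pancreas, 4.31-fold higher (interval 3.44 to 5.47). Iigp1 stood at 482 CPM in the control tumour against 192 CPM in ligated pancreas, 2.52-fold higher (interval 2.27 to 2.80). Ifi44 stood at 27.6 CPM in the control tumour against 4.70 CPM in ligated pancreas, 5.88-fold higher (interval 3.07 to 12.97). These 3 genes were higher in the control tumour well outside counting error. Zbp1 stood at 61.4 CPM in the control tumour against 16.2 CPM in ligated pancreas, 3.79-fold higher (interval 2.65 to 5.62). Ifi47 stood at 57.1 CPM in the control tumour against 15.7 CPM in ligated pancreas, 3.65-fold higher (interval 2.53 to 5.44). Igtp stood at 49.99 CPM in the control tumour against 17.8 CPM in ligated pancreas, 2.82-fold higher (interval 1.996 to 4.10). Gbp3, Gbp5, Bst2 and Oasl2 were higher by 2.13-fold to 2.75-fold, and Oas1a and Oas3 on 3 UMIs each in the ligated library. Ifit2 alone was past 2-fold lower, at 11.7 CPM in the control tumour against 29.8 CPM in ligated pancreas, 2.55-fold lower (interval 1.85 to 3.47). After subtraction of the pooled profile 7 members were higher and 3 lower.

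The ligated fibroblast-like cells came in 2 clusters, 102 cells in cluster 8 and 175 in cluster 24. With the members left out of the clustering, 253 of the ligated cells shared 1 cluster with 1045 cells of the control tumour and 89 of the normal pancreas, so the split was not used.

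In endothelial-like cells Gbp2 stood at 206 CPM in the control tumour against 63.8 CPM in ligated pancreas, 3.23-fold higher (interval 1.83 to 6.32). Bst2 stood at 423 CPM in the control tumour against 149 CPM in ligated pancreas, 2.84-fold higher (interval 1.95 to 4.31). Zbp1 was higher on 3 UMIs in the ligated library, with an interval that includes equality. The lower members included 2 transcription factors. Stat2 stood at 74.9 CPM in the control tumour against 282 CPM in ligated pancreas, 3.76-fold lower (interval 2.67 to 5.22). Irf1 stood at 326 CPM in the control tumour against 787 CPM in ligated pancreas, 2.42-fold lower (interval 2.001 to 2.90). Ifit1 stood at 20.98 CPM in the control tumour against 117 CPM in ligated pancreas, 5.57-fold lower (interval 3.11 to 9.77). Parp14 was lower too. In T-like cells Ifit1 rested on 57 UMIs in the control tumour and 8 in the ligated pancreas and was 15.4-fold lower (interval 6.35 to 32.5).

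In epithelial-like cells Gbp2 stood at 484 CPM in the control tumour against 9.93 CPM in ligated pancreas, 48.7-fold higher (interval 32.2 to 77.8). Iigp1 stood at 403 CPM in the control tumour against 9.48 CPM in ligated pancreas, 42.5-fold higher (interval 27.8 to 68.6). Gbp5 had no UMI in the ligated library and was at least 25.7-fold higher at a floor of 3 counts, with 34.8 CPM in the control tumour. Gbp3 and Ifi47 had 142 and 69.2 CPM in the control tumour and 1 UMI each in the ligated pancreas, giving ratios of 314 (interval 56.4 to 12422) and 153 (interval 27.4 to 6058). These 5 GTPases were low in the ligated pancreas. Gbp7 stood at 169 CPM in the control tumour against 17.2 CPM in ligated pancreas, 9.83-fold higher (interval 7.14 to 13.9). Bst2 stood at 250.4 CPM in the control tumour against 37.5 CPM in ligated pancreas, 6.68-fold higher (interval 5.38 to 8.41). Oasl1 stood at 35.9 CPM in the control tumour against 3.16 CPM in ligated pancreas, 11.4-fold higher (interval 5.48 to 28.4). The other 12 higher members were Igtp, Irgm1, Zbp1, Ifi204, Ifi211, Oas2, Oas3, Oasl2, Ifi27l2a, Ifit3, Rsad2 and Xaf1, of which Ifi204, Ifi211, Oas2, Oas3 and Ifit3 had 1 to 3 UMIs in the ligated library. The remaining 5 members of the 25 were lower past 2-fold. Irf1 stood at 184 CPM in the control tumour against 514 CPM in ligated pancreas, 2.79-fold lower (interval 2.61 to 2.99). Ifitm3 stood at 66.5 CPM in the control tumour against 201 CPM in ligated pancreas, 3.03-fold lower (interval 2.71 to 3.38). Cmpk2 stood at 1.93 CPM in the control tumour against 12.6 CPM in ligated pancreas, 6.55-fold lower (interval 3.80 to 11.2). Ifit2 was 2.63-fold lower (interval 1.77 to 3.84) and Ddx58 2.06-fold lower (interval 1.67 to 2.53).

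Within cluster 11 alone, with 86 cells in the control tumour and 331 in the ligated pancreas, the GTPases differed less. Of 5 GTPases with enough UMIs there 1 was past 2-fold higher, with a median log2 ratio of 0.70. Gbp2 stood at 11.02 CPM in the control tumour against 10.1 CPM in ligated pancreas, so the 48.7-fold difference of the whole class compares different cells. Cluster 11 had 7 of 25 members higher by 2-fold or more and 1 lower by as much, against 7.81% and 10.8% of 10594 genes. Iigp1 stood at 60.6 CPM in the control tumour against 9.60 CPM in ligated pancreas, 6.31-fold higher (interval 3.67 to 11.2). Ifi27l2a stood at 46.8 CPM in the control tumour against 4.11 CPM in ligated pancreas, 11.4-fold higher (interval 5.35 to 26.99). Ifitm3 stood at 482 CPM in the control tumour against 202 CPM in ligated pancreas, 2.38-fold higher (interval 2.06 to 2.75), the reverse of the whole epithelial-like class. Gbp3, Gbp5 and Ifi47 had under 20 UMIs in the libraries together.

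**Figure D3:**
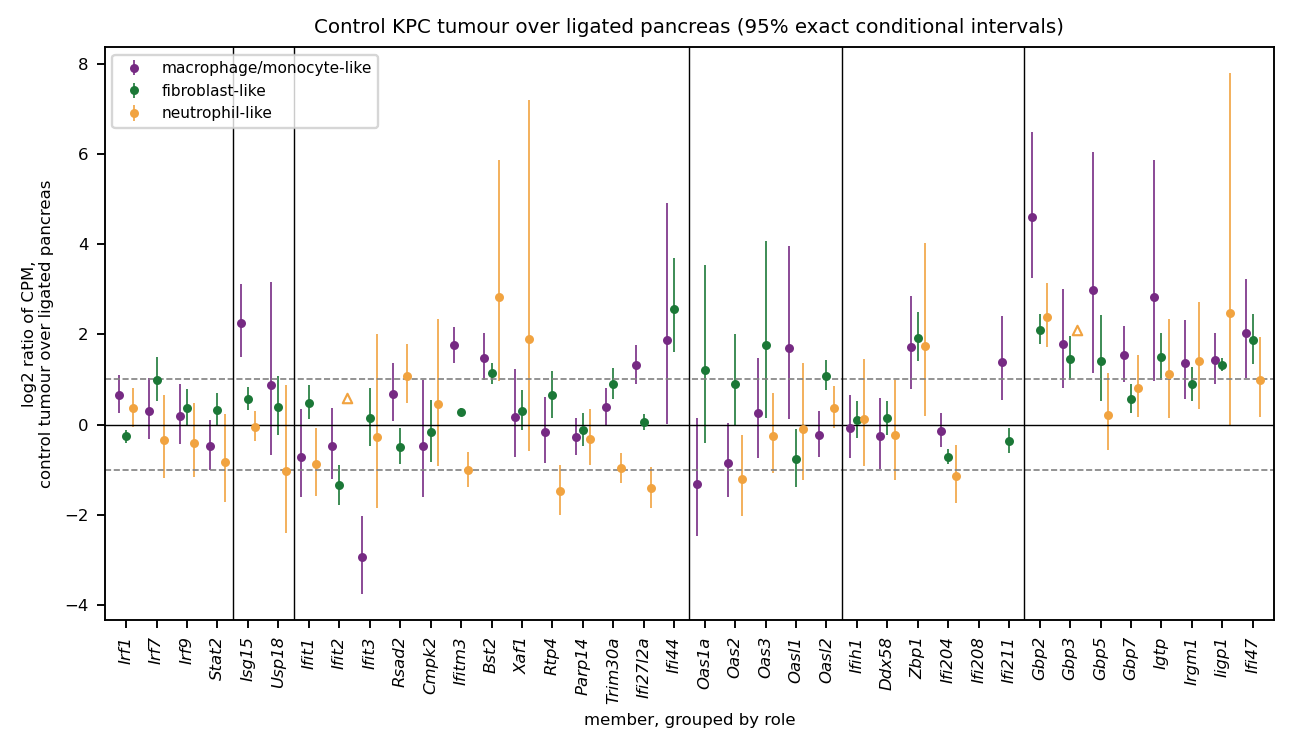
Log2 ratio of CPM, control tumour over ligated pancreas, for each member (x axis, by role) in macrophage/monocyte-like, fibroblast-like and neutrophil-like cells, where the libraries hold 20 or more UMIs together. Bars are 95% counting intervals, dashed lines mark 2-fold, and open triangles are lower bounds for members with no UMI in the ligated pancreas (floor of 3 counts). The 8 GTPases, at the right, lie above the upper 2-fold line in macrophage/monocyte-like cells and 6 of 8 do in fibroblast-like cells, while other roles lie on both sides of 0.

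Other pathway genes were higher in the control tumour as well. Of 9 class I presentation genes, 4 were past 2-fold higher in macrophage/monocyte-like, 5 in fibroblast-like, 7 in neutrophil-like and 8 in epithelial-like cells, and none lower. B2m, the class I light chain, stood in epithelial-like cells at 3629 CPM in the control tumour against 447 CPM in ligated pancreas, 8.11-fold higher (interval 7.62 to 8.64). Cxcl9 stood in macrophage/monocyte-like cells at 739.9 CPM in the control tumour against 14.1 CPM in ligated pancreas, 52.3-fold higher (interval 22.4 to 161). Cxcl10 stood at 426 CPM in the control tumour against 31.1 CPM in ligated pancreas, 13.7-fold higher (interval 7.65 to 27.4). Of the interferon receptors, at most 2 were past 2-fold higher and 1 lower in any of these classes.

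The third comparison, ligated against normal pancreas, asked what ligation without a tumour goes with. Endothelial-like cells held less of many members after ligation, fibroblast-like cells held more of several, and the few macrophage/monocyte-like cells went both ways. The neutrophil-like class was not compared, since the normal pancreas held none, and T-like cells numbered 13 there. Endothelial-like cells had 0 of 33 members higher by 2-fold or more and 14 lower by as much, against 11.4% and 10.4% of 5922 genes. Fibroblast-like cells had 8 of 32 members higher by 2-fold or more and 0 lower by as much, against 10.6% and 7.10% of 9490 genes. Macrophage/monocyte-like cells, 180 after ligation and 28 in the normal pancreas, had 3 of 15 members higher by 2-fold or more and 4 lower by as much, against 24.8% and 6.62% of 3522 genes. Epithelial-like cells had 2 of 29 members higher by 2-fold or more and 1 lower by as much, against 5.50% and 3.34% of 12446 genes. The endothelial-like and macrophage/monocyte-like shares of lower members were above their backgrounds, the fibroblast-like share above 2-fold was above its own, and in epithelial-like cells the members were near the background. The macrophage/monocyte-like share rests on 28 normal cells and 4 members, and on 2 members with doublets kept. With the members left out of the clustering, 23 normal cells fell in an unnamed cluster, and the named macrophage/monocyte-like clusters held at most 5 each.

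In endothelial-like cells, 89 after ligation and 258 in the normal pancreas, the lower members came from every role. Irgm1 stood at 128 CPM in ligated pancreas against 306 CPM in normal pancreas, 2.40-fold lower (interval 1.57 to 3.84). Gbp7 stood at 154 CPM in ligated pancreas against 357 CPM in normal pancreas, 2.32-fold lower (interval 1.57 to 3.54). Ifi47 stood at 47.8 CPM in ligated pancreas against 112 CPM in normal pancreas, 2.35-fold lower (interval 1.17 to 5.34). These GTPases were lower after ligation, and effectors were too. Ifitm3 stood at 680.4 CPM in ligated pancreas against 1531 CPM in normal pancreas, 2.25-fold lower (interval 1.87 to 2.73). Bst2 stood at 149 CPM in ligated pancreas against 331 CPM in normal pancreas, 2.22-fold lower (interval 1.495 to 3.42). Isg15 stood at 106 CPM in ligated pancreas against 357 CPM in normal pancreas, 3.36-fold lower (interval 2.12 to 5.60). Isg15 showed the widest gap of these 6 genes. Xaf1 stood at 47.8 CPM in ligated pancreas against 120.0 CPM in normal pancreas, 2.51-fold lower (interval 1.26 to 5.69). Irf7 stood at 53.2 CPM in ligated pancreas against 120.0 CPM in normal pancreas, 2.26-fold lower (interval 1.16 to 4.89). None of these intervals includes equality. Ifi208 had no UMI after ligation and 43 in the normal pancreas, at least 4.15-fold lower at a floor of 3 counts. Ifit3, Usp18, Oasl1, Cmpk2 and Ifi211 were past 2-fold lower on 2 to 6 UMIs after ligation, and 4 of these 5 intervals include equality.

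Some members with high levels in this class differed by less than 2-fold. Iigp1 stood at 1547 CPM in ligated pancreas against 2579 CPM in normal pancreas. Irf1 stood at 787 CPM in ligated pancreas against 1043 CPM in normal pancreas. Parp14 stood at 271 CPM in ligated pancreas against 371 CPM in normal pancreas. Stat2 was higher after ligation, at 282 CPM in ligated pancreas against 145 CPM in normal pancreas, and it was higher in 4 of 4 classes compared. Among 9 kinases and transcription factors with enough UMIs, Jak1, Jak2 and Stat3 were past 2-fold higher in endothelial-like cells and none was lower. Stat3 stood at 696 CPM in ligated pancreas against 329 CPM in normal pancreas, 2.11-fold higher (interval 1.69 to 2.64).

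**Figure D4:**
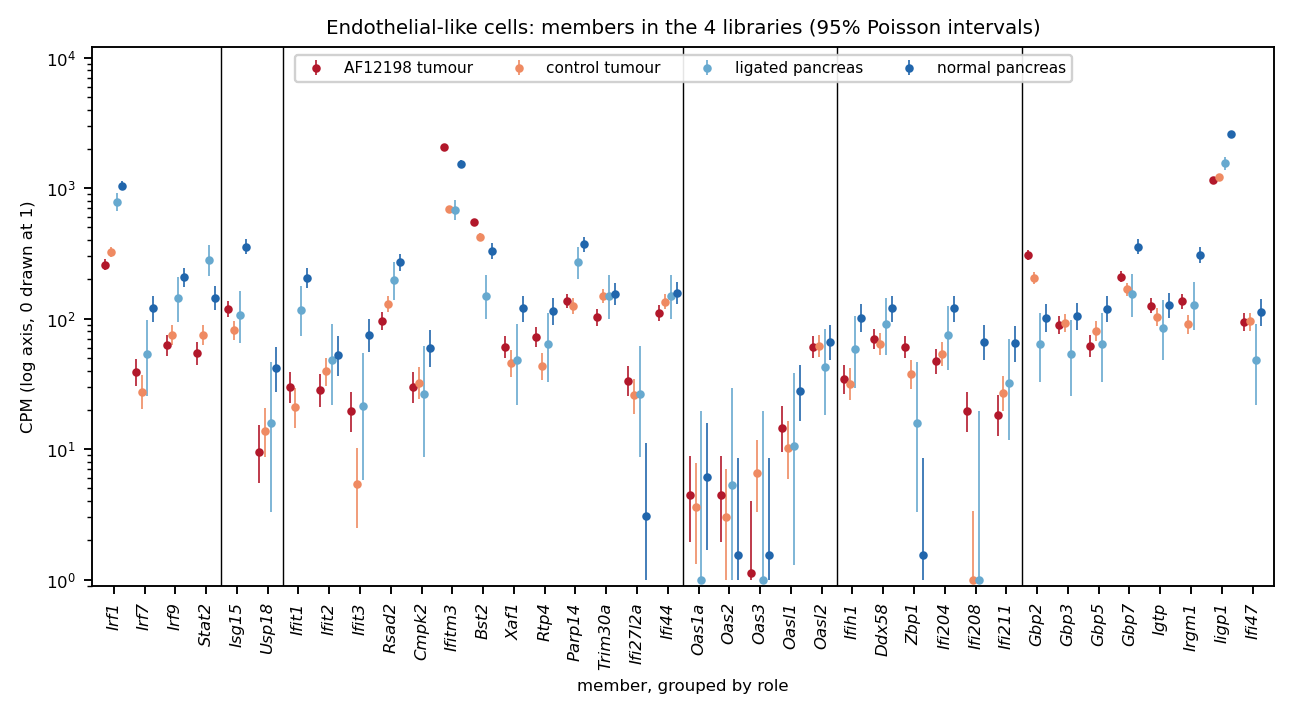
Level of each member in endothelial-like cells (CPM, log axis, 0 drawn at 1; members on the x axis, by role) in the 4 libraries, with 95% Poisson intervals that cover counting error only. The normal pancreas is highest for most members, among them Iigp1 at 2579 CPM and Isg15 at 357 CPM, whereas Ifitm3, Bst2, Gbp2 and Zbp1 are highest in the treated tumour.

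In fibroblast-like cells Ifit1 stood at 33.9 CPM in ligated pancreas against 11.5 CPM in normal pancreas, 2.96-fold higher (interval 1.36 to 7.64). Rsad2 stood at 32.9 CPM in ligated pancreas against 11.5 CPM in normal pancreas, 2.87-fold higher (interval 1.31 to 7.42). Stat2 stood at 37.6 CPM in ligated pancreas against 18.03 CPM in normal pancreas, 2.08-fold higher (interval 1.10 to 4.36). The ligated pancreas was the higher library for these 3 genes. Oasl2 stood at 40.7 CPM in ligated pancreas against 19.7 CPM in normal pancreas, 2.07-fold higher (interval 1.12 to 4.18). Zbp1 had no UMI in the normal pancreas and was at least 3.29-fold higher at a floor of 3 counts, with 16.2 CPM after ligation. Usp18, Oasl1 and Ifit3 were past 2-fold higher on 1, 1 and 3 UMIs in the normal pancreas.

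Among the chemokines, Cxcl10 in fibroblast-like cells stood at 231 CPM in ligated pancreas against 22.95 CPM in normal pancreas, 10.1-fold higher (interval 5.93 to 18.5). Cxcl9 stood at 53.3 CPM in ligated pancreas against 13.1 CPM in normal pancreas, 4.06-fold higher (interval 1.98 to 9.66). In endothelial-like cells Cxcl10 went the other way, at 112 CPM in ligated pancreas against 286 CPM in normal pancreas.

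Ifitm3 in macrophage/monocyte-like cells stood at 153 CPM in ligated pancreas against 495 CPM in normal pancreas, 3.25-fold lower (interval 2.08 to 5.02). Bst2 stood at 93.3 CPM in ligated pancreas against 201 CPM in normal pancreas, 2.15-fold lower (interval 1.09 to 4.08). Ifih1 was lower on 11 UMIs in the normal pancreas, and Irf1 was lower too. Ifi204, Irf7 and Gbp7 were past 2-fold higher on 1 or 2 UMIs each in the normal pancreas, and the intervals of Irf7 and Gbp7 include equality.

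Epithelial-like cells lay nearly all in cluster 11 in both pancreata. Gbp2 stood at 9.93 CPM in ligated pancreas against 2.99 CPM in normal pancreas. Zbp1 stood at 5.42 CPM in ligated pancreas against 1.77 CPM in normal pancreas, both past 2-fold higher after ligation at low levels. Ifit3 was past 2-fold lower on 3 UMIs after ligation, at 1.35 CPM in ligated pancreas against 5.43 CPM in normal pancreas, and turned higher once the pooled profile was subtracted. Irf1, the member with most UMIs there, stood at 514 CPM in ligated pancreas against 431 CPM in normal pancreas.

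The number of members found in each cell was counted at equal depth. No number expected from the summed level was set beside it, so it cannot show whether members sit in the same cells. Each cell was thinned to 1000 UMIs, and shallower cells were left out. These were 1291 of 7399 neutrophil-like cells of the treated tumour and 1171 of 5990 of the control tumour, and 77 of 258 endothelial-like cells of the normal pancreas. In the ligated pancreas they were 95 of 180 macrophage/monocyte-like, 36 of 82 neutrophil-like and 28 of 89 endothelial-like cells. Cells with UMIs of 5 or more members made up, of endothelial-like cells, 35.5% (interval 30.01 to 41.3%) in the treated tumour, 24.7% (interval 20.4 to 29.3%) in the control tumour, 34.4% (interval 22.7 to 47.7%) in ligated pancreas and 59.7% (interval 52.1 to 66.9%) in normal pancreas. Of neutrophil-like cells the share was 29.6% (interval 28.5 to 30.8%) in the treated tumour, 26.9% (interval 25.6 to 28.1%) in the control tumour and 19.6% (interval 9.36 to 33.9%) in ligated pancreas. Of macrophage/monocyte-like cells it was 24.2% (interval 22.9 to 25.5%) in the treated tumour, 22.9% (interval 21.7 to 24.2%) in the control tumour and 5.88% (interval 1.94 to 13.2%) in ligated pancreas. At this equal depth, endothelial-like cells of the normal pancreas thus held several members at once most often, and macrophage/monocyte-like cells did so more often in both tumours than after ligation. Without thinning the endothelial-like shares were 80.8% in the treated tumour, 67.2% in the control tumour, 52.8% in ligated pancreas and 70.9% in normal pancreas, where median UMIs per cell were 3928.5 in the treated tumour, 2802 in the control tumour, 1612 in ligated pancreas and 1740 in normal pancreas, so the order of the libraries differed with depth. The unthinned neutrophil-like shares were 38.4% in the treated tumour, 38.05% in the control tumour and 36.6% in ligated pancreas. Those of macrophage/monocyte-like cells were 80.6% in the treated tumour, 63.8% in the control tumour and 13.3% in ligated pancreas.

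Erythroid-like cells, with a median of 3011 UMIs in the treated and 1815 in the control tumour, reached 16.7% (interval 8.92 to 27.3%) in the treated tumour and 12.4% (interval 9.36 to 15.9%) in the control tumour. Acinar-like cells reached 2.52% (interval 1.10 to 4.91%) in the treated tumour and 1.92% (interval 0.0487 to 10.3%) in the control tumour. Fibroblast-like cells reached 13.5% (interval 10.7 to 16.8%) in the treated tumour and 13.7% (interval 11.9 to 15.6%) in the control tumour. Epithelial-like cells reached 8.26% (interval 6.61 to 10.2%) in the treated tumour and 7.30% (interval 5.87 to 8.96%) in the control tumour, and T-like cells 4.65% (interval 3.83 to 5.59%) in the treated tumour and 3.56% (interval 2.81 to 4.43%) in the control tumour. The fibroblast-like, epithelial-like and T-like shares lie at or below the erythroid-like share of the treated tumour and above the acinar-like share, and the part of free RNA in them was not tested. Without thinning, fibroblast-like cells gave 83.3% in the treated tumour and 81.3% in the control tumour. The unthinned epithelial-like shares were 44.5% in the treated tumour and 50.7% in the control tumour, and the T-like ones 23.6% in the treated tumour and 21.1% in the control tumour. Erythroid-like cells gave 45.2% in the treated tumour and 34.1% in the control tumour without thinning, and acinar-like cells 21.04% in the treated tumour and 26.3% in the control tumour. After ligation the thinned epithelial-like share was 0.323% (interval 0.00817 to 1.78%) and in the normal pancreas 0.491% (interval 0.101 to 1.43%).

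**Figure D5:**
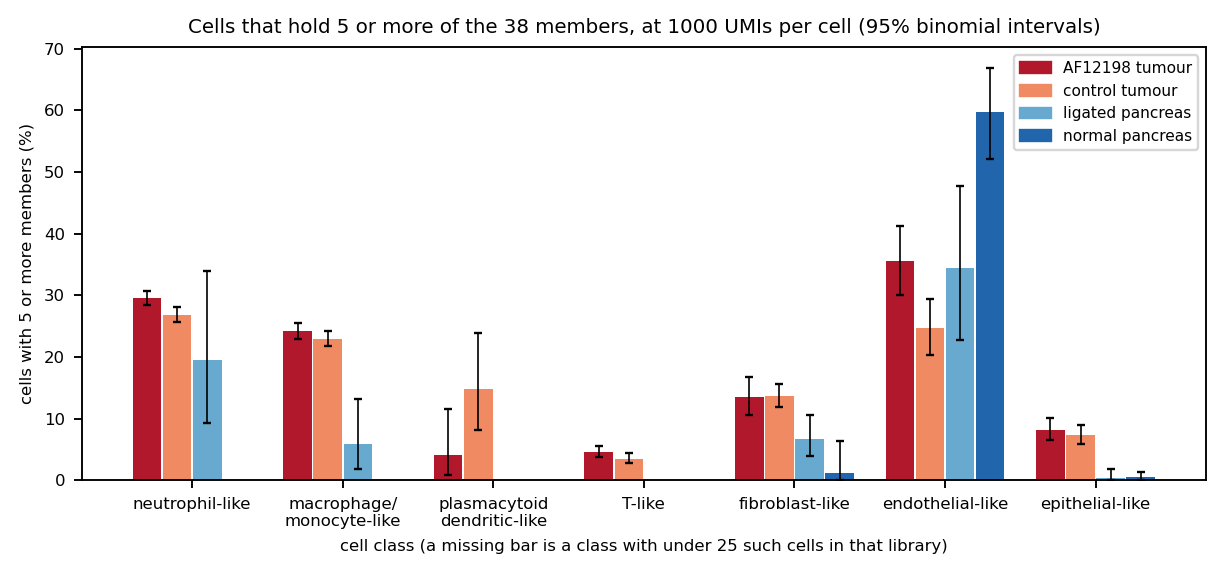
Share of cells, in percent, that hold UMIs of 5 or more members after thinning each cell to 1000 UMIs, by cell class and library; bars carry 95% binomial intervals and a missing bar is a class with under 25 such cells. Endothelial-like cells of the normal pancreas reach 59.7%, and tumour neutrophil-like and macrophage/monocyte-like cells lie between 22.9% and 29.6%.

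Neutrophil-like and macrophage/monocyte-like cells with 3 or more GTPase genes held more antiviral and oligoadenylate genes on average than those with none. No expected number was set beside these means, and both classes pool several clusters. Whether members of different roles share cells beyond such a mix was not tested. Neutrophil-like cells with UMIs of 3 or more GTPase genes, 1100 cells (18.01%) in the treated and 667 (13.8%) in the control tumour, held on average 2.05 (treated) and 2.32 (control) of 15 antiviral and oligoadenylate genes (Ifitm3, Bst2 and Ifi27l2a left out). Those with no GTPase gene held 0.498 in the treated and 0.641 in the control tumour. In macrophage/monocyte-like cells the means were 0.941 in the treated and 1.49 in the control tumour with 3 or more GTPase genes, and with none they were 0.297 in the treated and 0.512 in the control tumour. In endothelial-like cells with 3 or more they were 1.34 in the treated tumour, 1.72 in the control tumour and 2.21 in the normal pancreas. For these 15 genes the treated tumour was below the control tumour in both groups of neutrophil-like and macrophage/monocyte-like cells. Of the genes left out, Ifitm3 and Ifi27l2a were higher in the treated tumour in 15 of 15 classes and Bst2 in 10 of 15. The order thus holds for the 15 genes alone. All cells were thinned to the same depth.

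A group of 259 neutrophil-like cells, cluster 27, with 74 in the treated and 185 in the control tumour, held the members at a summed 35742 CPM in the treated and 27749 CPM in the control tumour. In the treated tumour it was 1.00% of neutrophil-like cells and held 32.8% of their Rsad2 UMIs. In the control tumour it was a larger share, 185 of 5990 neutrophil-like cells against 74 of 7399. The bearing of this on the class ratios, and on the means of antiviral and oligoadenylate genes per cell, was not tested. Clusters were built from variable genes that include members, so this group is a description of where the UMIs lay and its level is not a finding.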

How the data were processed

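Single-cell libraries (10x 3′ chemistry) were counted as UMIs per gene and cell by the authors with Cell Ranger 6.0.0 on build mm10, per the submitters' processing notes, and the raw counts were deposited as filtered matrices; whether counting used strand is not stated in the sources used here. The libraries held 96886820 (treated tumour), 95779324 (control tumour), 5360054 (ligated) and 11350597 (normal) UMIs in 21840, 23189, 1165 and 1844 barcodes. From these, cells with at least 250 genes, 500 UMIs and at most 20% mitochondrial UMIs were kept, and doublets were removed with Scrublet in each library (993, 2163, 0 and 1 cells; in the treated tumour the automatic cut marked under 0.5%, so the top 5% of scores were removed). Cells were clustered with scanpy 1.11.5 and leidenalg 0.10.2 (2000 variable genes, 40 components, 20 neighbours, resolution 1.0) on Python 3.11.15. A class needs at least 3 markers raised 2-fold and found in 10% of cells, limits chosen after seeing the data. Counts were summed per class and library; ratios carry exact conditional intervals and shares exact Clopper-Pearson intervals at 95%, which cover counting error only. With 1 library per group no test was run. Classes with 25 cells in both libraries were compared, and members named are those past 2-fold with 20 UMIs in both libraries together, or described by role. Members, gene lists and rules were chosen with earlier results of these data known. Alternatives covered the threshold, the minimum, the total, centring on the median gene, subtraction of the pooled profile, doublets, the cell filter, clustering resolution and thinning depth. Summing and ratio steps were tested on simulated counts. The result of 1 pathway gene is not reported here.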

Additional observations from a re-analysis of the deposited data

Results flagged for a closer look

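Some members lay past 2-fold in opposite directions in 2 cell classes of the same pair of libraries. With 1 library per group the difference between classes was not tested for any of them, and the list covers all members in the classes whose counts are given above.

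Between the treated and control tumours this held for 3 genes. Cmpk2 stood in epithelial-like cells at 4.12 CPM in the treated tumour and 1.93 CPM in the control tumour, but in macrophage/monocyte-like cells at 4.57 CPM in the treated tumour and 12.2 CPM in the control tumour, and the log2 ratios differed by 2.51. Ifit2 stood in lymphatic endothelial-like cells at 53.1 CPM in the treated tumour and 8.03 CPM in the control tumour, but in neutrophil-like cells at 14.3 CPM in the treated tumour and 33.8 CPM in the control tumour, and the log2 ratios differed by 3.97. Ifi204 stood in lymphatic endothelial-like cells at 55.7 CPM in the treated tumour and 18.7 CPM in the control tumour, but in T-like cells at 5.88 CPM in the treated tumour and 14.5 CPM in the control tumour, and the log2 ratios differed by 2.88. The lymphatic endothelial-like values of the control tumour rest on 3 UMIs of Ifit2 and 7 of Ifi204. In classes outside this list, Xaf1 was past 2-fold lower in acinar-like, B-like and plasma-like cells and Gbp5 in plasma-like cells, while both were past 2-fold higher in lymphatic endothelial-like cells.

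Between the control tumour and the ligated pancreas it held for 7 genes. Ifi204 stood in epithelial-like cells at 32.9 CPM in the control tumour and 0.903 CPM in ligated pancreas, but in neutrophil-like cells at 75.01 CPM in the control tumour and 165 CPM in ligated pancreas, and the log2 ratios differed by 6.32. Ifi27l2a stood in epithelial-like cells at 15.9 CPM in the control tumour and 4.06 CPM in ligated pancreas, but in neutrophil-like cells at 121 CPM in the control tumour and 322 CPM in ligated pancreas, and the log2 ratios differed by 3.38. Oas2 stood in epithelial-like cells at 10.98 CPM in the control tumour and 0.903 CPM in ligated pancreas, but in neutrophil-like cells at 39.2 CPM in the control tumour and 89.8 CPM in ligated pancreas, and the log2 ratios differed by 4.80. In these 3 genes the epithelial-like cells were higher in the tumour and the neutrophil-like cells lower, and the epithelial-like comparison sets clusters 10 and 15 against cluster 11. Ifit3 stood in epithelial-like cells at 6.33 CPM in the control tumour and 1.35 CPM in ligated pancreas, but in macrophage/monocyte-like cells at 5.15 CPM in the control tumour and 39.6 CPM in ligated pancreas, and the log2 ratios differed by 5.17. Ifitm3 stood in macrophage/monocyte-like cells at 517 CPM in the control tumour and 153 CPM in ligated pancreas, but in epithelial-like cells at 66.5 CPM in the control tumour and 201 CPM in ligated pancreas, and the log2 ratios differed by 3.36. Oas1a stood in fibroblast-like cells at 3.63 CPM in the control tumour and 1.57 CPM in ligated pancreas, but in macrophage/monocyte-like cells at 6.81 CPM in the control tumour and 16.96 CPM in ligated pancreas, and the log2 ratios differed by 2.53. Oasl1 stood in epithelial-like cells at 35.9 CPM in the control tumour and 3.16 CPM in ligated pancreas, but in T-like cells at 5.01 CPM in the control tumour and 17.7 CPM in ligated pancreas, and the log2 ratios differed by 5.33, with 1 UMI in the ligated T-like cells. The Ifit3 and Oas1a values rest on few UMIs in the ligated library.

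Between ligated and normal pancreas it held for 5 genes. Ifit3 stood in fibroblast-like cells at 12.5 CPM in ligated pancreas and 4.92 CPM in normal pancreas, but in epithelial-like cells at 1.35 CPM in ligated pancreas and 5.43 CPM in normal pancreas, and the log2 ratios differed by 3.35. Oasl1 stood in fibroblast-like cells at 14.1 CPM in ligated pancreas and 1.64 CPM in normal pancreas, but in endothelial-like cells at 10.6 CPM in ligated pancreas and 27.7 CPM in normal pancreas, and the log2 ratios differed by 4.49. Usp18 stood in fibroblast-like cells at 12.01 CPM in ligated pancreas and 1.64 CPM in normal pancreas, but in endothelial-like cells at 15.9 CPM in ligated pancreas and 41.5 CPM in normal pancreas, and the log2 ratios differed by 4.25. In these 3 the fibroblast-like cells were higher after ligation, on 1 to 3 UMIs in normal pancreas. After subtraction of the pooled profile Ifit3 in epithelial-like cells was higher after ligation too, so its opposite direction depends on that step. Irf7 stood in macrophage/monocyte-like cells at 56.5 CPM in ligated pancreas and 13.4 CPM in normal pancreas, but in endothelial-like cells at 53.2 CPM in ligated pancreas and 120.0 CPM in normal pancreas, and the log2 ratios differed by 3.25. Gbp7 stood in macrophage/monocyte-like cells at 65.02 CPM in ligated pancreas and 26.8 CPM in normal pancreas, but in endothelial-like cells at 154 CPM in ligated pancreas and 357 CPM in normal pancreas, and the log2 ratios differed by 2.49. The macrophage/monocyte-like values of the normal pancreas rest on 1 UMI of Irf7 and 2 of Gbp7.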

How the results depend on the processing

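No paired analysis was possible because each group is 1 library. Counts of members past the threshold came to within 1.5 times of the reported count in 285 of 350 recounts and moved further in 65, single members kept their direction in all but 3 of 682, and mean members per cell kept the sign of the difference in 24 of 30. The cause was not tested in any of these. At 1.5-fold the treated over control counts were 3 higher and 13 lower in fibroblast-like cells, 5 higher in endothelial-like, 8 lower in epithelial-like, 17 lower in macrophage/monocyte-like, 4 higher in neutrophil-like, 14 lower in T-like, and 17 higher and 3 lower in lymphatic endothelial-like cells. At 1.5-fold the control over ligated counts were 3 lower in fibroblast-like, 4 lower in macrophage/monocyte-like, 5 higher and 8 lower in endothelial-like, 1 lower in lymphatic endothelial-like and 7 higher in T-like cells, and the ligated over normal counts 13 higher and 2 lower in fibroblast-like, 1 higher and 23 lower in endothelial-like, 4 higher and 2 lower in epithelial-like, and 5 higher in macrophage/monocyte-like cells. With no minimum of UMIs they were 2 higher in fibroblast-like and 1 lower in endothelial-like and in lymphatic endothelial-like cells (treated over control), 2 lower in fibroblast-like cells (control over ligated), and 1 lower in fibroblast-like, 3 higher in endothelial-like, 5 higher and 2 lower in epithelial-like, and 6 higher in macrophage/monocyte-like cells (ligated over normal). With Gm42418, AY036118, mitochondrial and ribosomal genes left out of the total, treated over control gave 2 higher and 1 lower in fibroblast-like and 1 lower in epithelial-like cells. Centred on the median gene it gave 2 higher and 0 lower in fibroblast-like, 1 lower in epithelial-like, 3 lower in macrophage/monocyte-like, 3 higher and 3 lower in neutrophil-like and 3 lower in T-like cells. After subtraction of the pooled profile it gave 1 lower in fibroblast-like, 5 lower in epithelial-like, 3 lower in neutrophil-like, 6 higher and 2 lower in T-like, and 17 higher and 1 lower in lymphatic endothelial-like cells, control over ligated gave 7 higher and 3 lower in fibroblast-like, 10 lower in neutrophil-like, 7 lower in endothelial-like, and 1 higher and 19 lower in T-like cells, and ligated over normal gave 1 higher in macrophage/monocyte-like, and 18 higher and 0 lower in epithelial-like cells, where the assigned share had reached its limit of 50%. With doublets kept, 1 was lower in endothelial-like cells (treated over control), 5 were higher in T-like cells (control over ligated) and 2 lower in macrophage/monocyte-like cells (ligated over normal). A stricter cell filter gave 4 lower in epithelial-like and 1 in lymphatic endothelial-like cells (treated over control) and 1 higher in endothelial-like cells (ligated over normal). Clustering at resolution 2.0 gave 2 higher in neutrophil-like cells (treated over control), and at 0.5 gave 3 lower in epithelial-like cells (ligated over normal).

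The log2 ratio of Iigp1 in neutrophil-like cells, control over ligated, was 2.48 and became −1.36 at resolution 2.0, that of Gbp2 in T-like cells, control over ligated, was 1.14 and became −1.57 after subtraction, and that of Ifit3 in epithelial-like cells, ligated over normal, was −2.00 and became 0.93 after subtraction. Differences in mean members per cell changed sign to −0.0619 in fibroblast-like cells (ligated minus normal, thinned to 500 UMIs), to −0.0100 in neutrophil-like cells (control minus ligated, 500 UMIs), and at 2000 UMIs to 0.280 in endothelial-like cells (control minus ligated) and to 0.0213 in epithelial-like, −0.315 in macrophage/monocyte-like and −0.242 in neutrophil-like cells (treated minus control). Depth limits the ligated and normal libraries most: the ligated library held 82 neutrophil-like and 180 macrophage/monocyte-like cells, and members with 1 to 3 UMIs there have wide intervals. One library per group leaves treatment, animal and library confounded.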

Other observations

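Plasmacytoid dendritic-like cells, a specialised source of type I interferon, numbered 74 in the treated and 88 in the control tumour, with 1 or none in the other libraries. The 38 members summed to 4201 CPM in the treated tumour and 4095 in the control tumour, and Bst2, which in mouse is a marker of these cells, gave 43.6% of that sum in the treated and 34.7% in the control tumour, at 1830.5 CPM in the treated tumour and 1423 in the control tumour. Trim30a stood at 194 CPM in the treated tumour and 587 in the control tumour, Stat2 at 69.3 CPM in the treated tumour and 176 in the control tumour, Irf7 at 33.5 CPM in the treated tumour and 86.4 in the control tumour and Ifi44 at 21.5 CPM in the treated tumour and 80.6 in the control tumour. Gbp2 lay the other way, at 74.1 CPM in the treated tumour and 23.04 in the control tumour. Stat2, Irf7, Ifi44 and Trim30a were thus lower in the treated tumour in these few cells, and no test was possible.

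Lymphatic endothelial-like cells, which line lymph vessels, numbered 34 in the treated and 101 in the control tumour and 38 in ligated pancreas. The member sum was 8123 CPM in the treated tumour, 3618 in the control tumour and 2191 in ligated pancreas, and the GTPase sum 2542 CPM in the treated tumour, 1411 in the control tumour and 463 in ligated pancreas. Ifitm3 stood at 2627 CPM in the treated tumour and 562 in the control tumour, Ifi27l2a at 703 CPM in the treated tumour and 147 in the control tumour and Gbp2 at 586 CPM in the treated tumour and 142 in the control tumour. Isg15 stood at 241 CPM in the treated tumour and 80.3 in the control tumour, Zbp1 at 194 CPM in the treated tumour and 58.9 in the control tumour and Gbp7 at 345 CPM in the treated tumour and 150.0 in the control tumour. Cells with 5 or more members after thinning made up 44.1% (interval 27.2 to 62.1%) in the treated tumour, 12.6% (interval 6.48 to 21.5%) in the control tumour and 3.12% (interval 0.0791 to 16.2%) in ligated pancreas. The treated tumour was highest of the 3 libraries in each of these sums and shares.

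UMIs of the interferons themselves were few. Ifng had 2033 UMIs in 445 cells of the treated tumour and 994 UMIs in 442 cells of the control tumour, against 5 UMIs in ligated and 3 in normal pancreas. These totals are not scaled to library size or to T-like cells. The tumours held 2488 (treated) and 2420 (control) T-like cells, the ligated pancreas 59 and the normal pancreas 13. In T-like cells the Ifng log2 ratio of control tumour over ligated pancreas was 0.54, short of 2-fold. Ifnb1 had 4 UMIs in 3 cells of the treated tumour and 23 UMIs in 13 cells of the control tumour, 6 UMIs in 1 cell of the ligated pancreas and none in the normal pancreas. Ifnl2 and Ifnl3 had no UMI in any library, which limits UMIs at this depth and says nothing of cells that express them below it.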
